A study of Astyanax mexicanus with 12 samples.

Results

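The 87 genes described here encode nuclear subunits of the 5 complexes of oxidative phosphorylation, taken by gene name from the 27420 genes of a liver RNA table of Astyanax mexicanus, a fish with a sighted river form and a blind cave form. The name stems were nduf (followed by a, b, c, s or v) for complex I, sdha to sdhd for complex II, uqcr and cyc1 for complex III, cox4 to cox8 for complex IV and atp5 for complex V. Assembly factors that share a stem were left out. The names gave 36 genes of complex I, 4 of complex II, 11 of complex III, 18 of complex IV and 15 of complex V. The 3 genes of the ndufa4 family were kept apart, because in mammals NDUFA4 carries a complex I name but is counted with complex IV.

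RNA came from 12 livers, 3 in each of 4 groups: wild-caught cave fish (cave wild), wild-caught surface fish (surface wild), laboratory-reared cave fish (cave lab) and laboratory-reared surface fish (surface lab). The cave fish of both groups are titled Pachón, the name of a cave. All fish were adults and had been fasted for 12 h before dissection, so no fed animal stands beside them. The labels used here do not state sex, exact age, body size, the place and date of capture or the laboratory stocks, so surroundings, stock and ancestry cannot be told apart between wild-caught and laboratory fish.

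In the inner mitochondrial membrane, complex I takes electrons from NADH and complex II takes them from succinate, and both pass them to ubiquinone. Complex III hands them on to cytochrome c, and complex IV gives them to oxygen. Complexes I, III and IV pump protons as they work, and complex V, the ATP synthase, makes ATP from the returning flow. In liver this supply pays for the making of glucose, urea and secreted proteins. Complex II is encoded wholly in the nucleus, while complexes I, III, IV and V also hold subunits from the mitochondrial genome, which were not analysed here. Several complex IV subunits have tissue-specific isoforms in mammals, and in bony fishes many of these genes have an extra copy.

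The table gives TPM, an abundance scaled by transcript length and set to the same total in each library, so levels of different genes may be compared. Differences are given as log2 differences ± standard error on the log2(TPM + 1) scale, which understates the change of low genes. Tests were made with limma over the 12895 genes that reached 1 TPM in at least 3 libraries. A gene is said to have been called where its Benjamini-Hochberg adjusted p was under 0.05. Of the 87 subunit genes 86 were tested, and ndufa4l2b was listed at 0 in every library.

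The livers carried hepatocyte genes at high levels, and libraries differed in ways that touch the comparisons. Of 12 hepatocyte markers found, apoa1a was at or near 0 and the other 11 were tested. The summed hepatocyte markers ranged from 127620 to 143700 TPM in cave wild, 87058 to 98009 TPM in surface wild, 121420 to 157770 TPM in cave lab and 126290 to 153000 TPM in surface lab livers. The 5 erythrocyte markers summed to 140 to 228 TPM in cave wild, 31.0 to 121.5 TPM in surface wild, 347 to 429 TPM in cave lab and 438 to 954 TPM in surface lab livers. The 8 macrophage and leukocyte markers lay between 34.2 and 149 TPM, the 5 biliary ones between 300.2 and 1583 TPM and the 5 of exocrine pancreas between 135 and 5509 TPM over the 12 livers. The part of these cell types in the results was not tested. Cytosolic ribosomal protein genes took 33.1 to 36.4% of all TPM in cave wild livers, 20.5 to 24.0% in surface wild, 16.4 to 22.7% in cave lab and 11.4 to 16.98% in surface lab livers. Since TPM sums to a fixed total, a larger share for these genes leaves less for all others. A second scaling, median of ratios, divides each library by its typical ratio to the mean library, taken over genes present in every library. Its divisors were 0.572 to 0.695 for cave wild livers, against 0.951 to 1.398 for the other 9. Results are given on both scales where they differ. In whole-liver RNA, fewer cells of a type and less RNA per cell cannot be told apart, and no source says that the 3 samples of a group are more than separate samples, so p-values measure the spread between these samples.

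Levels of the subunit genes spanned a wide range within each complex, and no summary of levels was made over all genes. Over the 12 libraries the 87 means had a median of 51.7 TPM, with 26 genes at 100 TPM or more and 8 below 10 TPM. The highest was ndufa4l at 1021 TPM. Complex V stood highest, with a median of 172 TPM over its genes, and 11 of its 15 genes reached 100 TPM. The medians of complexes I to IV were 29.9, 36.8, 48.9 and 66.4 TPM. The leading gene of complex I was ndufb2, an accessory subunit of the membrane arm, at 333 TPM. For complex II it was sdha, the flavoprotein that oxidises succinate, at 71.0 TPM. Complex III was led by the small subunit uqcr10 at 591 TPM. Complex IV was led by cox6c, another small subunit, at 637 TPM. In complex V it was atp5mc3b, which encodes subunit c of the rotating membrane ring, at 661 TPM.

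On the TPM scale most subunit genes were steady over the 12 livers. For 57 of them the highest library stood less than 3 times above the lowest. No such count was made over all tested genes. The steadiest was cox4i1, the common form of the largest nuclear subunit of complex IV, which lay between 128 and 206 TPM. With the library divisors applied, cox4i1 lay between 100 and 360 units, so its steadiness depends on the scaling. In TPM only 7 genes spanned more than 10 times, namely atp5mea, cox4i1l, cox4i2, cox7a2l, cox6b1, ndufa4 and atp5pd, and 4 of these belong to complex IV. The span of atp5pd, subunit d of the peripheral stalk of ATP synthase, came from a single library. It was listed at 0.03 TPM in cave wild 1 and stood between 12.2 and 45.5 TPM in the other 11.

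Summed over all 87 genes, the subunits took close to 1% of all TPM in every group. The sums were 12173, 9725 and 8195 TPM in cave wild livers 1 to 3, against 8764, 10818 and 12618 TPM in surface wild livers. In the laboratory they were 9730, 9180 and 10039 TPM in cave livers, against 10237, 11937 and 7730 TPM in surface livers. The groups overlapped, and cave lab livers varied least. By complex, complex I summed to 1851 ± 428 TPM in cave wild and 2332 ± 594 TPM in surface wild livers (SD, n = 3 each), and to 1869 ± 19.9 TPM in cave lab and 2398 ± 694 TPM in surface lab livers. Complex III summed to 1170 ± 532 TPM in cave wild and 1368 ± 156 TPM in surface wild livers, and to 887 ± 25.0 TPM in cave lab and 1100 ± 221 TPM in surface lab livers. Complex V summed to 3679 ± 579 TPM in cave wild and 3147 ± 807 TPM in surface wild livers, and to 3152 ± 148 TPM in cave lab and 3173 ± 515 TPM in surface lab livers. Complex II, the smallest, summed to 119 ± 43.9 TPM in cave wild and 160 ± 9.78 TPM in surface wild livers, and to 168 ± 6.05 TPM in cave lab and 185 ± 36.5 TPM in surface lab livers. Complex IV summed to 2473 ± 415 TPM in cave wild and 2348 ± 395 TPM in surface wild livers, and to 2488 ± 167 TPM in cave lab and 2162 ± 574 TPM in surface lab livers. For these 5 complexes the cave and surface means of an environment differed by less than the larger SD. The ndufa4 family summed to 739 ± 115 TPM in cave wild and 1379 ± 369 TPM in surface wild livers, which did not overlap, and to 1087 ± 127 TPM in cave lab and 951 ± 183 TPM in surface lab livers. With median-of-ratios scaling the sum over all genes was 15740 ± 4906 units in cave wild livers, 10429 ± 2659 in surface wild, 7476 ± 728 in cave lab and 8581 ± 689 in surface lab livers, so the place of cave wild livers depends on the scaling.

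**Figure D1:**
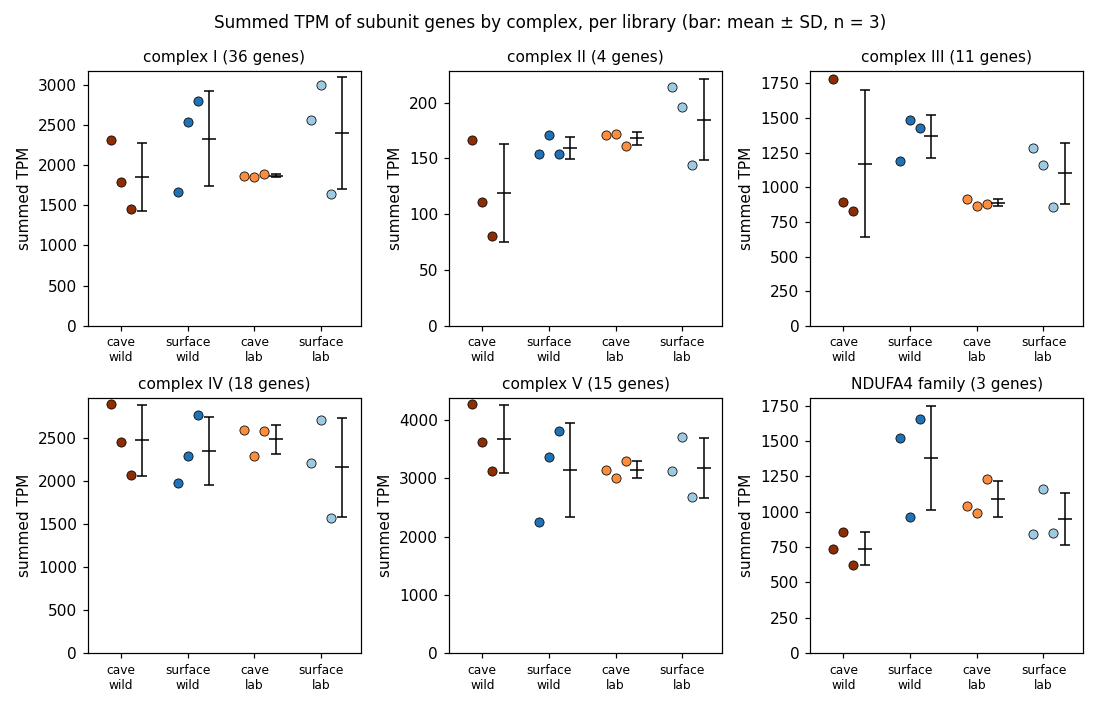
Summed TPM of the subunit genes of each complex and of the ndufa4 family (vertical axes, each starting at 0), with a point per library in the 4 groups and a bar for the mean ± SD of 3 livers. Cave lab points lie close together, and the cave wild points of complex III spread from 830 to 1783 TPM.

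The spread within a group was shared by most subunits of a library. In cave wild 1, 79 of the 86 tested subunits lay above their group mean, and in cave wild 3 only 10 did. In surface wild 1, 12 lay above it, and in surface wild 3, 73 did. In surface lab 2, 73 lay above it, and in surface lab 3 only 6 did. The 3 cave lab livers had 50, 29 and 49 above. The complexes of a library mostly shifted together: in cave wild 1 the median shift was 0.37 for complex I, 0.55 for complex II, 0.55 for complex III, 0.18 for complex IV and 0.31 for complex V on the log2 scale. In the same library all tested genes shifted by -0.10, which is the opposite sign. Surface lab 3 had shifts of -0.41, -0.28, -0.51, -0.27 and -0.26 for complexes I to V, against -0.17 for all tested genes. Subunits of 1 library are therefore not independent readings of its group.

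**Figure D2:**
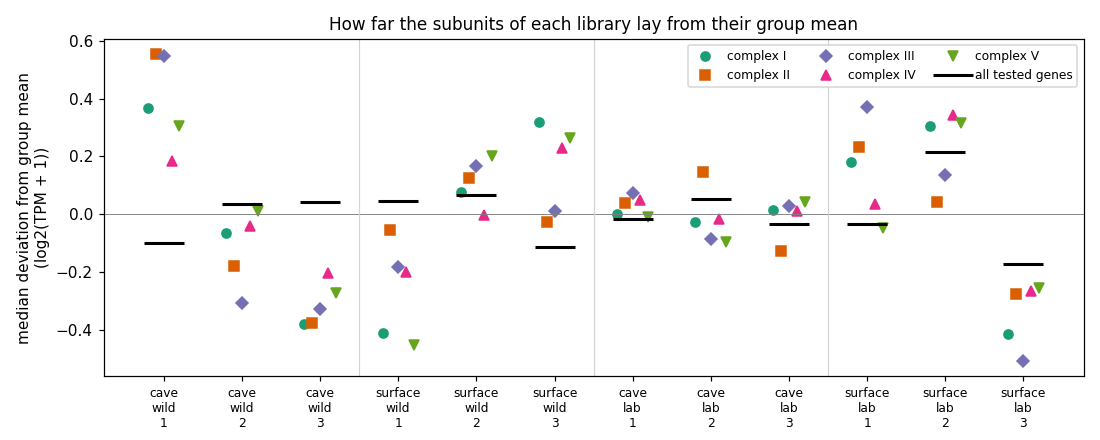
Median deviation of the tested subunits of each complex from their own group mean (vertical axis, log2(TPM + 1)) in each of the 12 libraries, with black bars for all tested genes. The complexes of cave wild 1 lie between 0.18 and 0.55 and those of surface lab 3 between -0.51 and -0.26, while the cave lab points lie near 0.

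In wild-caught fish 5 subunits were called higher and 8 lower in cave than in surface livers, and complex IV held calls in both directions. Of all tested genes 5.13% were called higher and 26.5% lower in this comparison, so the 5 of 86 were near the background and the 8 of 86 below it. In complex IV 33.3% of the 18 genes were called in either direction, near the 31.6% of all tested genes. With median-of-ratios scaling these shares were 44.4% and 17.9%. With median-of-ratios scaling 11 subunits were higher and 2 lower, against 10.1% and 7.82% of all genes, and 7 subunits were called under both scales. The median over the 86 subunits was -0.27, against -0.46 over all genes, and 57 subunits lay above the median of all genes. Relative to that median, the complex medians were 0.17 for complex I, -0.06 for complex II, -0.35 for complex III, 0.67 for complex IV and 0.35 for complex V. With median-of-ratios scaling the same quantities were 0.40, 0.15, -0.11, 0.91 and 0.59, so that only complex II changed sign. Before the median of all genes was taken off, complexes I, II and V had medians of -0.29, -0.53 and -0.12 on the TPM scale and 0.37, 0.13 and 0.56 with median-of-ratios scaling.

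In laboratory fish only cox4i1l and cox6b1 were called, both higher in cave livers, and 6 of the 86 had an unadjusted p under 0.05. Of all tested genes 5.26% were called higher and 2.3% lower. With median-of-ratios scaling the subunit calls were 2 higher and 0 lower, against 3.5% and 2.42% of all genes. The median over the 86 subunits was -0.17, against 0.10 over all genes, and only 21 subunits lay above the median of all genes. For complex I 2 of 36 lay above it, with a relative median of -0.32 on the TPM scale and -0.36 with median-of-ratios scaling. For complex IV 9 of 18 lay above it, with relative medians of 0.10 and 0.05. No subunit of complexes I, II, III or V passed in limma, and 1 of complex I, 0 of complex II, 1 of complex III and 0 of complex V had an unadjusted p under 0.05.

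In cave fish, wild-caught against laboratory livers, 0 subunits were called higher and 2 lower, again cox4i1l and cox6b1. Of all tested genes 1.51% were called higher and 34.3% lower, and the median of all genes was -0.69, while that of the 86 subunits was -0.00. On this scale 81 of 86 subunits lay above the median of all genes. With median-of-ratios scaling 17 subunits were higher and 1 lower, against 3.75% and 3.51% of all genes, and only cox4i1l was called under both scales. The 17 were 2 genes of complex I, 3 of complex III, 6 of complex IV and 6 of complex V, and the largest difference among them was 1.81 ± 0.43 for COX7A2 (1 of many). Whether subunit genes were higher in wild-caught cave livers thus depends on the scaling. Complexes I to V had relative medians of 0.61, 0.35, 0.90, 0.75 and 0.85 on the TPM scale, and of 0.90, 0.60, 1.19, 1.03 and 1.14 with median-of-ratios scaling.

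In surface fish, wild-caught against laboratory livers, 3 subunits were higher (cox6b1, ndufa4 and cox7a2l) and 1 was lower (cox4i2). Of all tested genes 6.77% were called higher and 11.2% lower. With median-of-ratios scaling the same 4 were called, against 9.48% higher and 8.86% lower of all genes. With the replicate number as a block in the fit of all 12 libraries the same 4 were called as well, but whether that number marks pairs is not known. With only these 2 groups in the fit none of the 4 was called (adjusted p 0.0651 to 0.117 in limma), so the calls depend on a spread estimated over all 4 groups. The median over the 86 subunits was 0.06, against -0.11 over all genes. Complex III had a relative median of 0.58, with 9 of its 11 genes above the median of all genes. Its widest difference was that of uqcrh, the hinge protein of complex III, which stood at 68.2, 116 and 105 TPM in surface wild livers, against 45.4, 51.7 and 17.8 TPM in surface lab livers, but it was not called (1.41 ± 0.58, adjusted p = 0.107 in limma).

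The difference between cave and surface livers itself differed between wild-caught and laboratory fish for 3 subunits, all of complex IV. The interaction was higher for cox4i2 and lower for cox4i1l and cox6b1. Of all tested genes 0.892% were called higher and 4.19% lower in the interaction. With median-of-ratios scaling 2 subunits were higher and 2 lower, against 1.44% and 0.659% of all genes, and the added call was COX7A2L (1 of many). Over the 4 comparisons of groups, 15 subunits were called at least once and 71 were tested and called in none. No such count was made over all tested genes. In the single comparisons 31.6% of all tested genes were called in wild-caught, 7.55% in laboratory, 35.8% in cave and 18% in surface fish. These comparisons share groups of libraries, so their calls are not independent of each other.

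**Figure D3:**
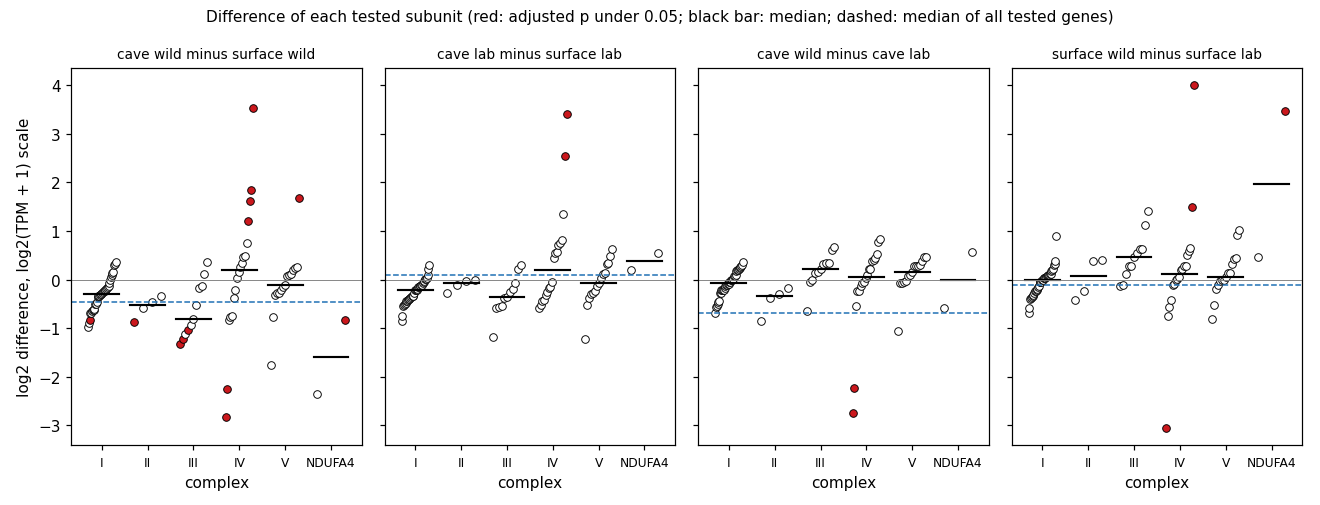
Log2 difference of each tested subunit (points) by complex in the 4 comparisons of groups, on the log2(TPM + 1) scale, with red for called genes, black bars for the median of a complex and a dashed line for the median of all tested genes. Over the 4 comparisons together most calls lie in complex IV, which holds 6 of the 13 in cave wild minus surface wild. Most points of cave wild minus cave lab lie above the dashed line at -0.69.

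Complex I, the largest complex, showed few calls. Of its 36 genes 1 was called on the TPM scale, in wild-caught fish, which is 2.78% against 31.6% of all tested genes. With median-of-ratios scaling it was not, and 3 others were called higher in cave livers, namely ndufb3, ndufa9a and ndufa12 (0.96, 0.98 and 0.98, adjusted p 0.0423 to 0.0470 in limma). These 3 are 8.33% of the 36, near the 10.1% of all tested genes called higher on that scale. The gene called on the TPM scale was ndufa1, a small membrane-arm subunit, which stood at 4.98, 4.89 and 4.14 TPM in cave wild livers, against 7.72, 7.99 and 12.3 TPM in surface wild livers. The groups did not overlap, and the difference was -0.84 ± 0.29 (adjusted p = 0.0425 in limma). In laboratory fish ndufa1 stood at 6.03, 4.74 and 5.89 TPM in cave livers, against 7.49, 12.3 and 6.38 TPM in surface livers (-0.53 ± 0.29, adjusted p = 0.335). Its wild-caught call was lost without any single library of the 6 (adjusted p 0.0638 to 0.116) and with median-of-ratios scaling (-0.26, adjusted p = 0.508).

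The most abundant gene of complex I, ndufb2, was ordered in the same way without being called. It stood at 225, 269 and 216 TPM in cave wild livers, against 319, 338 and 433 TPM in surface wild livers (-0.61 ± 0.31, adjusted p = 0.147 in limma). In laboratory fish it stood at 264, 246 and 246 TPM in cave livers, against 457, 665 and 314 TPM in surface livers (-0.86 ± 0.31, adjusted p = 0.129). All 6 cave livers thus lay below all 6 surface livers in TPM, but with median-of-ratios scaling the wild-caught difference was 0.07 and the laboratory one -1.03. The next most abundant, ndufb7, overlapped in every comparison of 2 groups, with 239 ± 58.0 TPM in cave wild and 296 ± 133 TPM in surface wild livers (SD, n = 3 each). Nor was ndufv1 called, which binds NADH in the catalytic core, with 69.0 ± 17.4 TPM in cave wild and 97.1 ± 12.7 TPM in surface wild livers (-0.51 ± 0.31, adjusted p = 0.228). The iron-sulphur subunit ndufs1 differed by 0.14 ± 0.26 in wild-caught and 0.22 ± 0.26 in laboratory fish (adjusted p = 0.700 and 0.712).

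Complex II links the citric acid cycle to the chain, and its 4 genes had negative differences in wild-caught fish on the TPM scale, while with median-of-ratios scaling only sdhb did. The called gene was sdhb, the iron-sulphur subunit, which stood at 13.9, 7.25 and 7.26 TPM in cave wild livers, against 20.6, 18.4 and 14.0 TPM in surface wild livers. The groups did not overlap, though cave wild 1 and surface wild 3 nearly met, and the difference was -0.88 ± 0.31 (adjusted p = 0.0487 in limma). The call was lost without cave wild 2 or 3 (adjusted p = 0.149 and 0.150), without surface wild 1 or 2 (0.132 and 0.120) and with median-of-ratios scaling (-0.25, adjusted p = 0.610). The flavoprotein sdha stood at 48.9 ± 19.1 TPM in cave wild and 63.9 ± 1.65 TPM in surface wild livers (SD, n = 3 each). It stood at 84.6 ± 8.53 TPM in cave lab and 86.7 ± 18.5 TPM in surface lab livers. The membrane anchors sdhc and sdhda differed by -0.34 ± 0.33 and -0.59 ± 0.30 in wild-caught fish and were not called in any comparison. In cave fish sdha was the complex II gene with the largest difference between wild-caught and laboratory livers (-0.85 ± 0.34, adjusted p = 0.0688), and its 3 cave wild values of 67.6, 49.8 and 29.3 TPM lay below all 3 cave lab values of 84.5, 93.2 and 76.1 TPM. With median-of-ratios scaling that difference was 0.13.

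In complex III 3 of 11 genes were called lower in cave than in surface livers of wild-caught fish, a share near the 26.5% of all tested genes. Cytochrome c1, CYC1, which passes electrons to cytochrome c, stood at 62.4, 22.5 and 22.3 TPM in cave wild livers, against 81.4, 87.1 and 75.3 TPM in surface wild livers. The groups did not overlap, but cave wild 1 stood far above the other cave wild livers. The difference was -1.33 ± 0.42 (adjusted p = 0.0327 in limma). In laboratory fish CYC1 stood at 32.1 ± 5.56 TPM in cave and 38.04 ± 12.48 TPM in surface livers (SD, n = 3 each), a difference of -0.19 ± 0.42 (adjusted p = 0.850). The small subunit UQCR11 stood at 142, 76.0 and 89.1 TPM in cave wild livers, against 186, 303 and 221 TPM in surface wild livers (-1.22 ± 0.38, adjusted p = 0.0318). Its laboratory values did not overlap either, at 67.1, 59.0 and 69.2 TPM in cave livers, against 198, 186 and 89.4 TPM in surface livers, but were not called (-1.18 ± 0.38, adjusted p = 0.0893).

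The Rieske iron-sulphur protein of complex III was encoded by a pair of genes in the table, and the call fell on the rare copy. The copy named uqcrfs1 stood at 3.10, 0.90 and 2.36 TPM in cave wild livers, against 4.34, 6.73 and 4.62 TPM in surface wild livers (-1.05 ± 0.33, adjusted p = 0.0327 in limma). The copy named UQCRFS1 (1 of many) stood at 44.6 ± 11.3 TPM in cave wild and 49.6 ± 6.09 TPM in surface wild livers (SD, n = 3 each), with a difference of -0.17 ± 0.32 (adjusted p = 0.707). The rare copy made up 2.19 to 6.14% of the summed TPM of both in cave wild livers, against 8.49 to 10.8% in surface wild livers. In laboratory fish this order was reversed, with 6.655 to 8.01% in cave livers, against 4.14 to 6.07% in surface livers. With median-of-ratios scaling none of the calls on CYC1, UQCR11 and uqcrfs1 remained (-0.67, -0.55 and -0.56, adjusted p 0.268 to 0.331). Each was also lost without cave wild 2 (adjusted p 0.107 to 0.127), without cave wild 3 (0.0589 to 0.112), without surface wild 1 (0.0533 to 0.0782) and without surface wild 2 (0.0902 to 0.113). With median-of-ratios scaling uqcrq was called higher in cave wild than in surface wild livers (1.03, adjusted p = 0.0493 in limma). On that scale UQCR11, uqcrb and uqcrq were called higher in cave wild than in cave lab livers (1.58, 1.29 and 1.32, adjusted p 0.0314 to 0.0416). The most abundant gene, uqcr10, stood at 693 ± 329 TPM in cave wild and 596 ± 51.7 TPM in surface wild livers, with a difference of 0.12 ± 0.31 (adjusted p = 0.783).

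Complex IV departed most, and cox6b1 was the subunit called in all 4 comparisons of groups. In mammals COX6B1 lies on the intermembrane side, where it helps to join the monomers of the dimer. Its gene stood at 10.8, 20.7 and 8.25 TPM in cave wild livers, against 157, 28.5 and 185 TPM in surface wild livers. In laboratory fish the order was the other way round: 86.0, 64.6 and 41.9 TPM in cave livers, against 1.64, 8.20 and 7.51 TPM in surface livers. In TPM no comparison of groups overlapped, but surface wild 2 stood far nearer to the cave wild livers than its group did. With the library divisors applied, cave wild 2 stood above surface wild 2, so the wild-caught groups overlapped. The group means were 13.2 ± 6.56 TPM in cave wild, 123 ± 83.5 TPM in surface wild, 64.2 ± 22.04 TPM in cave lab and 5.78 ± 3.605 TPM in surface lab livers (SD, n = 3 each). By mean, surface wild livers thus stood highest and cave lab livers next, within the spread of surface wild, and surface lab livers lowest.

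The cave minus surface difference of cox6b1 was -2.84 ± 0.70 in wild-caught fish (adjusted p = 0.0139 in limma) and 3.40 ± 0.70 in laboratory fish (adjusted p = 0.0102). The interaction was -6.24 ± 0.98 (adjusted p = 0.00897), and it was past the threshold under all 19 alternatives run (adjusted p 0.0022 to 0.0308). Wild-caught cave livers were lower than laboratory cave livers by -2.23 ± 0.70 (adjusted p = 0.0277), and wild-caught surface livers were higher than laboratory surface livers by 4.01 ± 0.70 (adjusted p = 0.00543), a 16.1-fold difference on the log2(TPM + 1) scale. The call in cave fish was lost with median-of-ratios scaling (-1.28, adjusted p = 0.273) and without cave wild 1, cave wild 3, cave lab 1 or cave lab 2 (adjusted p 0.0711 to 0.0884). The call in surface fish was lost with only those 2 groups in the fit (adjusted p = 0.0651 in limma). The call in wild-caught fish was lost without surface wild 1 (-2.48, adjusted p = 0.0544). With median-of-ratios scaling that wild-caught difference was -2.20 ± 0.70 (adjusted p = 0.0499 in limma).

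The other gene of this family, cox6b2, did not move with it. In mammals COX6B2 is known from testis. In the livers cox6b2 stood at 82.5 ± 8.55 TPM in cave wild, 59.25 ± 9.10 TPM in surface wild, 57.3 ± 5.66 TPM in cave lab and 60.6 ± 17.4 TPM in surface lab livers (SD, n = 3 each), and it was not called in any comparison on the TPM scale. With median-of-ratios scaling cox6b2 was called higher in cave wild than in surface wild livers (1.15 ± 0.29, adjusted p = 0.0202) and than in cave lab livers (1.501 ± 0.29, adjusted p = 0.0102). The share of cox6b1 in the summed TPM of the pair, which no scaling of a library can change, was 10.5, 21.0 and 9.67% in cave wild livers, against 76.2, 30.3 and 74.5% in surface wild livers. The laboratory values were 62.1, 50.4 and 42.8% in cave livers, against 2.70, 9.44 and 14.6% in surface livers. The pair summed to 95.7 ± 9.24 TPM in cave wild and 183 ± 79.8 TPM in surface wild livers, and to 121 ± 21.0 TPM in cave lab and 66.3 ± 18.4 TPM in surface lab livers.

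**Figure D4:**
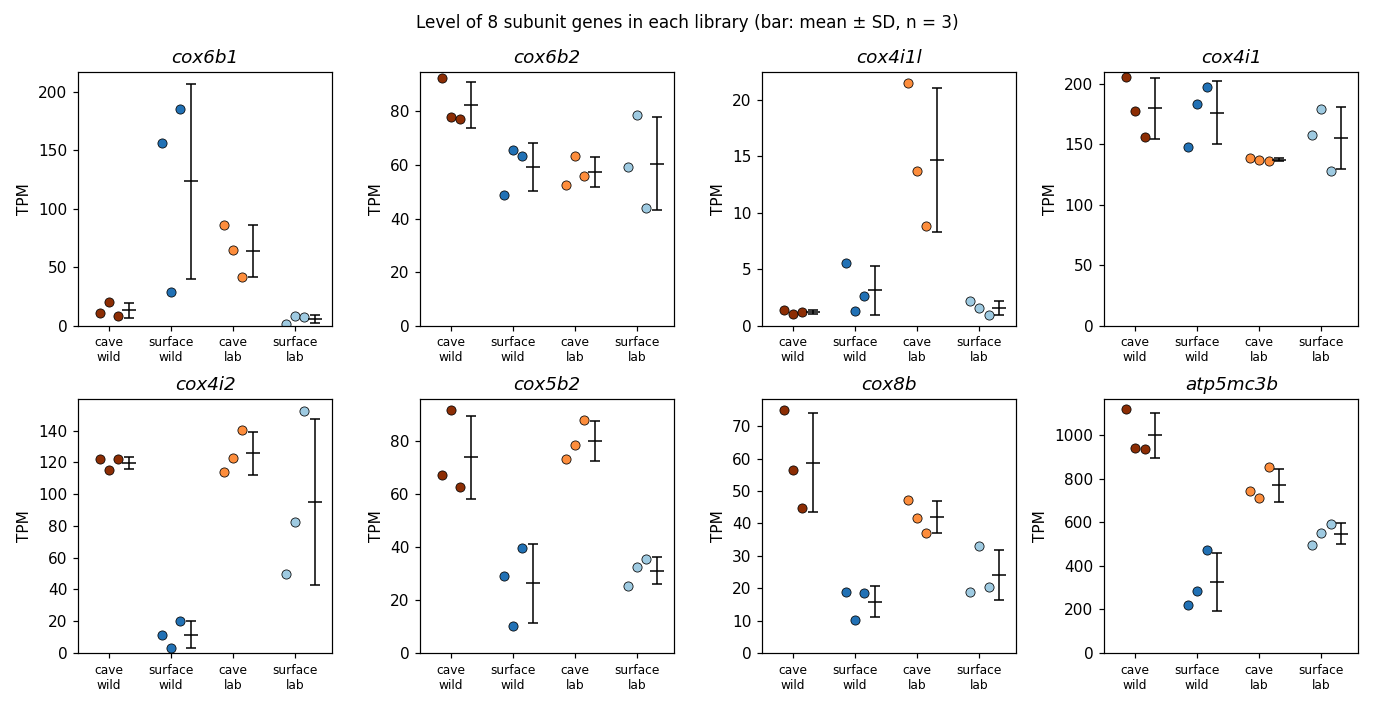
TPM of 8 complex IV and V subunit genes (vertical axes, each starting at 0) with a point per library in the 4 groups and a bar for the mean ± SD of 3 livers. For cox6b1 surface wild and cave lab livers are high, for cox4i1l cave lab livers alone are high, and for cox4i2 surface wild livers are low.

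The cox4 family, which encodes the largest nuclear subunit of complex IV, held a gene that was steady in TPM and a pair of shifting ones. The steady gene was cox4i1, at 180 ± 25.1 TPM in cave wild, 176 ± 25.8 TPM in surface wild, 137 ± 1.22 TPM in cave lab and 155 ± 25.6 TPM in surface lab livers (SD, n = 3 each). Its difference between cave and surface livers was 0.03 ± 0.28 in wild-caught and -0.16 ± 0.28 in laboratory fish (adjusted p = 0.943 and 0.809 in limma). With median-of-ratios scaling cox4i1 was called higher in cave wild than in cave lab livers (1.37 ± 0.29, adjusted p = 0.0179).

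A gene named cox4i1l was low in 3 groups and higher in laboratory cave livers. It stood at 1.37, 1.08 and 1.19 TPM in cave wild livers, against 5.52, 1.28 and 2.67 TPM in surface wild livers. Laboratory fish had 21.4, 13.7 and 8.83 TPM in cave livers, against 2.19, 1.59 and 0.94 TPM in surface livers. The cave lab livers did not overlap any other group. The difference was 2.55 ± 0.39 in laboratory fish (adjusted p = 0.00164 in limma), which is 5.87-fold on the log2(TPM + 1) scale. In wild-caught fish it was -0.78 ± 0.39 (adjusted p = 0.141), with overlap. Wild-caught cave livers were lower than laboratory cave livers by -2.74 ± 0.39 (adjusted p = 0.00146), and the interaction was -3.33 ± 0.55 (adjusted p = 0.0104). These 3 calls held under every alternative run (13, 13 and 19 of them, adjusted p at most 0.0334). Even in cave lab livers cox4i1l made up 3.10 to 7.82% of the summed TPM of the 3 cox4 genes.

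The isoform cox4i2, which in mammals is the hypoxia-responsive isoform and is best known from lung, was low in wild-caught surface livers. It stood at 122, 115 and 122 TPM in cave wild livers, against 11.1, 3.36 and 20.3 TPM in surface wild livers. In the laboratory groups it measured 114, 123 and 140 TPM in cave livers, against 49.96, 82.4 and 152 TPM in surface livers. The wild-caught groups stood far apart, while the laboratory groups overlapped. The difference was 3.54 ± 0.53 in wild-caught fish (adjusted p = 0.00257 in limma), which is 11.6-fold on the log2(TPM + 1) scale, and 0.54 ± 0.53 in laboratory fish (adjusted p = 0.646). Wild-caught surface livers were lower than laboratory surface livers by -3.06 ± 0.53 (adjusted p = 0.00558), a call lost with only these 2 groups in the fit (adjusted p = 0.0734). The interaction was 3.00 ± 0.75 (adjusted p = 0.0448), and it was past the threshold under 8 of 19 alternatives (adjusted p 0.00762 to 0.2). As these comparisons share the surface wild livers, they rest on the same 3 low values. Without both surface wild 1 and 2, an alternative chosen after seeing the data that leaves only surface wild 3, the wild-caught difference was 2.504.

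Within the cox4 family, cox4i2 thus made up a changing share. It was 37.0, 39.2 and 43.7% of the summed TPM in cave wild livers, against 6.77, 1.79 and 9.18% in surface wild livers. In laboratory fish it was 41.6, 44.8 and 49.2% in cave livers, against 23.8, 31.3 and 54.1% in surface livers. The family as a whole summed to 301 ± 25.9 TPM in cave wild and 191 ± 28.3 TPM in surface wild livers, and to 277 ± 6.62 TPM in cave lab and 251 ± 37.1 TPM in surface lab livers (SD, n = 3 each).

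A pair of complex IV genes was higher in all 6 cave livers than in all 6 surface livers. The zinc-binding subunit gene cox5b2 stood at 67.3, 91.8 and 62.6 TPM in cave wild livers, against 29.0, 10.2 and 39.8 TPM in surface wild livers (1.63 ± 0.43, adjusted p = 0.0179 in limma). The laboratory values were 73.4, 78.4 and 88.1 TPM in cave livers, against 25.4, 32.4 and 35.6 TPM in surface livers. The groups did not overlap there either, but the difference of 1.34 ± 0.43 was not called (adjusted p = 0.0880). The wild-caught call on cox5b2 was lost without cave wild 2 (adjusted p = 0.0653) or surface wild 2 (0.0594).

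The gene cox8b, whose mammalian counterpart is the heart and skeletal muscle isoform of a small subunit, stood at 75.2, 56.6 and 44.7 TPM in cave wild livers, against 18.8, 10.3 and 18.5 TPM in surface wild livers (1.84 ± 0.35, adjusted p = 0.00631 in limma). Laboratory fish had 47.2, 41.6 and 37.2 TPM in cave livers, against 18.9, 32.9 and 20.3 TPM in surface livers (0.82 ± 0.35, adjusted p = 0.206). Its common partner cox8a pointed the other way without a call, with 292 ± 98.0 TPM in cave wild and 479 ± 70.8 TPM in surface wild livers (-0.75 ± 0.38, adjusted p = 0.141). The share of cox8b in the pair was 16.0, 16.7 and 18.3% in cave wild livers, against 4.45, 1.85 and 3.66% in surface wild livers. In the laboratory groups it measured 14.1, 17.5 and 12.7% in cave livers, against 5.26, 5.96 and 8.91% in surface livers, so no cave liver overlapped a surface liver in this share.

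Markers of striated muscle were near 0 in the livers with the most cox8b. The 10 muscle markers found summed to 0.01 to 0.03 TPM in cave wild, 0.03 to 0.28 TPM in surface wild, 0.15 to 0.65 TPM in cave lab and 0.12 to 14.0 TPM in surface lab livers. Both acta1a and pvalb1, an actin and a parvalbumin of muscle, were listed at 0 in all 12, so they do not tell the livers apart. Any part of muscle tissue in the cox8b values was not tested. The other muscle isoform, cox7a1, stood at 331, 189 and 200 TPM in cave wild livers, against 243, 66.7 and 295 TPM in surface wild livers (0.46 ± 0.49, adjusted p = 0.500 in limma).

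**Figure D5:**
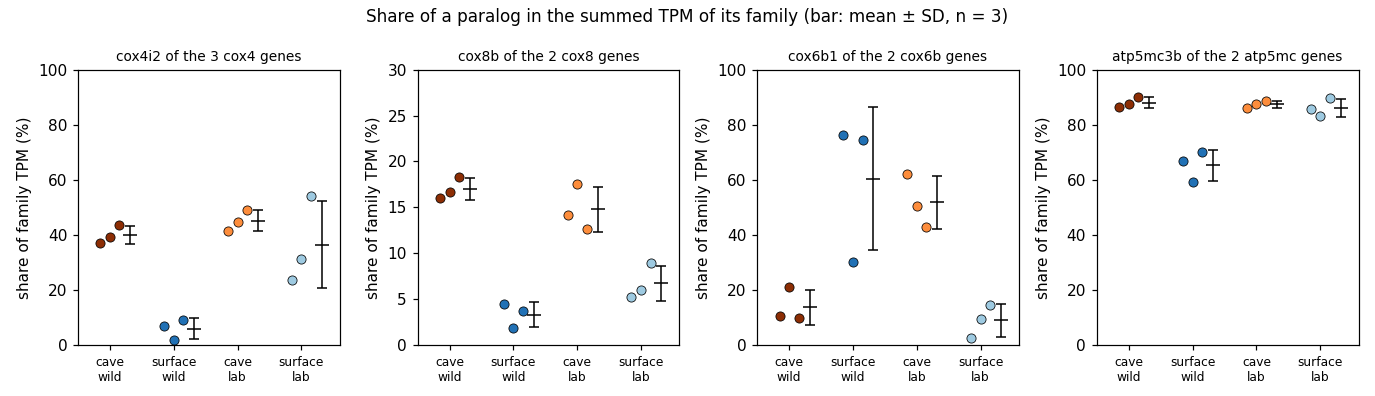
Share of cox4i2, cox8b, cox6b1 and atp5mc3b in the summed TPM of their own gene family (vertical axes in percent, the cox8b axis ending at 30), with a point per library in the 4 groups and a bar for the mean ± SD of 3 livers. The cox8b share of every cave liver is at least 12.7%, against at most 8.91% in surface livers.

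The cox7a2l family moved in opposite directions within wild-caught fish. In mammals COX7A2L is known less as a subunit than as a factor that joins complexes III and IV into supercomplexes. The abundant copy, named COX7A2L (1 of many), stood at 189, 118 and 212 TPM in cave wild livers, against 63.9, 70.3 and 83.2 TPM in surface wild livers (1.21 ± 0.34, adjusted p = 0.0214 in limma). In laboratory fish the pair, almost all of it this copy, summed to 100 ± 23.8 TPM in cave and 125 ± 28.1 TPM in surface livers (SD). With median-of-ratios scaling the laboratory difference of the abundant copy was -0.50 ± 0.38 (adjusted p = 0.527 in limma). The rare copy, named cox7a2l, stood at 0.20, 0.14 and 0.70 TPM in cave wild livers, against 11.3, 4.39 and 2.76 TPM in surface wild livers (-2.25 ± 0.38, adjusted p = 0.00404). The laboratory values of the rare copy were 0.50, 0.87 and 0.34 TPM in cave livers, against 1.97, 0.93 and 0.96 TPM in surface livers (-0.53 ± 0.38, adjusted p = 0.495). All 6 cave livers thus lay below all 6 surface livers in TPM, the closest at 0.87 against 0.93 TPM. The rare copy reached 1 TPM only in the surface wild livers and surface lab 1. It thus passed the filter through the livers where it was high, and its calls rest on those same values. It was also higher in wild-caught than in laboratory surface livers (1.49 ± 0.38, adjusted p = 0.0225), a call lost without surface wild 1, surface lab 2 or surface lab 3 (adjusted p 0.0604 to 0.0696). Without a filter and with only these 2 groups in the fit that call was lost too (adjusted p = 0.0507 and 0.117). The call on the abundant copy was lost without cave wild 1, cave wild 3, surface wild 1 or surface wild 2 (adjusted p 0.0586 to 0.0734). RSEM divides reads between similar transcripts by an estimate, so for each pair of similar copies named here the split between copies is less certain than their sum, and its part in these shifts was not tested.

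In complex V a single gene was called on the TPM scale, and it was the most abundant one. That is 6.67% of the complex in wild-caught fish, against 31.6% of all tested genes. The subunit c gene atp5mc3b stood at 1119, 943 and 935 TPM in cave wild livers, against 221, 284 and 473 TPM in surface wild livers. The groups did not overlap, and the difference was 1.68 ± 0.29 (adjusted p = 0.00483 in limma). In laboratory fish it stood at 744, 710 and 855 TPM in cave livers, against 498, 553 and 593 TPM in surface livers. These did not overlap either, but the difference of 0.49 ± 0.29 was not called (adjusted p = 0.394). Its partner atp5mc1, which encodes the same mature protein in mammals, stood at 138 ± 37.3 TPM in cave wild and 170 ± 51.8 TPM in surface wild livers (SD, n = 3 each), with a difference of -0.28 ± 0.35 (adjusted p = 0.554), which was 0.39 with median-of-ratios scaling. The share of atp5mc3b in the pair was 86.4, 87.6 and 90.1% in cave wild livers, against 66.8, 59.05 and 70.03% in surface wild livers. The laboratory values were 86.2, 87.6 and 88.5% in cave livers, against 85.6, 83.2 and 89.6% in surface livers. The low shares were thus those of wild-caught surface livers.

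The catalytic head and the peripheral stalk of complex V gave no call on the TPM scale. The genes atp5fa1 and atp5f1b, for the alpha and beta subunits that form the catalytic head, differed by 0.11 ± 0.32 and -0.32 ± 0.31 between cave and surface livers in wild-caught fish (adjusted p = 0.821 and 0.450 in limma). The peripheral stalk gene atp5pb stood at 577 ± 100 TPM in cave wild and 487 ± 112 TPM in surface wild livers, and at 465 ± 16.4 TPM in cave lab and 553 ± 74.6 TPM in surface lab livers (SD, n = 3 each). With median-of-ratios scaling atp5pb was called higher in cave wild than in cave lab livers (1.29, adjusted p = 0.0322 in limma). So were atp5po of the peripheral stalk and atp5f1d and atp5f1e of the central stalk (1.27, 1.15 and 1.27, adjusted p 0.0479 to 0.0486). The remaining complex V calls there were atp5l and atp5mc3b (1.46 and 1.37, adjusted p = 0.018 and 0.0416). Another peripheral stalk gene, atp5pd, stood at 0.03, 17.9 and 15.3 TPM in cave wild livers, against 18.4, 23.5 and 25.1 TPM in surface wild livers. Laboratory fish had 12.2, 12.2 and 15.2 TPM in cave livers, against 24.6, 45.5 and 29.3 TPM in surface livers. All cave livers lay below all surface livers in TPM, but the value in cave wild 1 widened the error and no comparison was called (-1.76 ± 0.84 and -1.23 ± 0.84, adjusted p = 0.123 and 0.467).

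The ndufa4 family was carried by ndufa4l, the most abundant of all 87 genes. It stood at 710, 855 and 619 TPM in cave wild livers, against 1425, 922 and 1641 TPM in surface wild livers (-0.84 ± 0.28, adjusted p = 0.0395 in limma). In the laboratory groups it measured 1036, 986 and 1226 TPM in cave livers, against 825, 1162 and 850 TPM in surface livers (0.21 ± 0.28, adjusted p = 0.752). The wild-caught call was lost without any single library of the 6 except surface wild 2 (0.0628 to 0.119), and with median-of-ratios scaling (-0.16, adjusted p = 0.733). The gene named ndufa4 varied more than the others within groups, with 96.5, 39.2 and 14.7 TPM in surface wild livers, against 14.8, 0.91 and 0.48 TPM in surface lab livers. These groups overlapped by a little, since surface lab 1 passed surface wild 3, and the difference was called (3.47 ± 1.00, adjusted p = 0.0340). The call was lost without surface wild 1, surface wild 2, surface lab 2 or surface lab 3 (adjusted p 0.0835 to 0.127). Without a filter and with only these 2 groups in the fit it was lost too (adjusted p = 0.0772 and 0.107). In cave fish ndufa4 stood at 25.1, 1.1 and 7.17 TPM in wild-caught livers, against 4.27, 3.49 and 4.87 TPM in laboratory livers (0.56 ± 1.00, adjusted p = 0.678).

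Across both environments, 3 subunits stood higher in all 6 cave than in all 6 surface livers (cox5b2, cox8b and atp5mc3b) and 4 stood lower (ndufb2, ndufa1, cox7a2l and atp5pd). Of all tested genes 1.51% stood higher and 2.32% lower in this way. For cox7a2l all cave values were under 1 TPM. With median-of-ratios scaling the wild-caught differences of cox5b2, cox8b and atp5mc3b were 2.30 ± 0.45, 2.51 ± 0.35 and 2.36 ± 0.36 (adjusted p = 0.00771, 0.00117 and 0.00215 in limma). The laboratory differences on that scale were 1.17, 0.64 and 0.31 and were not called (adjusted p = 0.181, 0.345 and 0.693). With the library divisors applied, only cox5b2 and cox8b kept all 6 cave livers above all 6 surface livers, and none of the 86 subunits had all cave livers below. The share of all tested genes was not computed on that scale, so these counts have no background beside them. Scaled atp5mc3b was as low as 519 in a cave liver and as high as 607 in a surface liver. Leaving out both surface wild 1 and 2 leaves only surface wild 3 in its group. The wild-caught differences of cox5b2, cox8b and atp5mc3b on the TPM scale were then 0.86, 1.59 and 1.07.

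Genes that build and serve the complexes were taken from name lists in the same way. Of 48 assembly factors, which insert cofactors and join subunits, 12 were lower and 0 higher in cave than in surface livers of wild-caught fish, against 26.5% lower of all tested genes, so this share was near the background. Their median was -0.65, against -0.46 over all genes. Among them were cox11, which delivers copper to complex IV (-1.58 ± 0.34, adjusted p = 0.00991 in limma), and sco1, another copper chaperone (-1.26 ± 0.37, adjusted p = 0.0258). With median-of-ratios scaling 1 of the 48 was higher and 1 lower, so the calls on cox11 and sco1 did not both remain. In laboratory fish bcs1l, which inserts the Rieske protein into complex III, was higher in cave livers (2.47 ± 0.43, adjusted p = 0.00394), with 29.0 ± 10.9 TPM in cave livers and 4.30 ± 1.59 TPM in surface livers. There sdhaf1, which serves the iron-sulphur subunit of complex II, was lower (-1.16 ± 0.25, adjusted p = 0.0130). Of the 48, 1 was higher and 5 lower in cave wild than in cave lab livers, which turned to 5 higher and 0 lower with median-of-ratios scaling. Of all genes 34.3% were lower there on the TPM scale and 3.75% higher with median-of-ratios scaling. In surface fish 4 of the 48 were higher in wild-caught than in laboratory livers, against 6.77% of all genes.

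Of 12 genes for the electron carriers cytochrome c and ubiquinone, 3 were lower in cave than in surface livers of wild-caught fish and 0 in laboratory fish, where 0 had an unadjusted p under 0.05. The 3 of 12 were near the 26.5% of all genes, and with median-of-ratios scaling 1 was lower. They were coq4, pdss1 and pdss2, which act in ubiquinone synthesis. Of 15 regulators of mitochondrial genes, 6 were lower in cave than in surface livers of wild-caught fish. The transcription factor nrf1, which activates nuclear subunit genes in mammals, was lower in cave livers of wild-caught fish (-2.23 ± 0.32, adjusted p = 0.00181 in limma) and of laboratory fish (-1.16 ± 0.32, adjusted p = 0.0458). The coactivator pprc1 was lower in wild-caught cave than surface livers (-3.01 ± 0.69, adjusted p = 0.0115) and higher in wild-caught than laboratory surface livers (3.79 ± 0.69, adjusted p = 0.00645). With median-of-ratios scaling 3 regulators were lower and 1 higher in the wild-caught comparison of cave and surface livers.

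Of 27 genes for protein import, pores and membrane folding, 13 were lower and 3 higher in cave than in surface livers of wild-caught fish. The 3 higher were the outer-membrane pores vdac1, vdac2 and vdac3, with differences of 0.96 ± 0.29, 1.30 ± 0.27 and 2.28 ± 0.53 (adjusted p = 0.0285, 0.00841 and 0.0119 in limma). The lower genes included the import receptor tomm70a (-2.75 ± 0.39, adjusted p = 0.00187) and the mitochondrial chaperone hspd1 (-2.95 ± 0.81, adjusted p = 0.0206). With median-of-ratios scaling 3 were higher and 1 lower, so the calls on tomm70a and hspd1 did not both remain. In laboratory fish 0 of the 27 were called in limma and 1 had an unadjusted p under 0.05. On the TPM scale 8 of 86 subunits were thus lower in wild-caught cave livers, beside 12 of 48, 3 of 12, 6 of 15 and 13 of 27 in these lists and 26.5% of all genes. With median-of-ratios scaling the lower calls were 2 of 86 subunits, against 7.82% of all genes. The lists then had 1 of 48, 1 of 12, 3 of 15 and 1 of 27. The gap in lower calls to the assembly and import genes was thus seen on the TPM scale only. Their medians stayed apart on both scales. Relative to the median of all genes, subunits, assembly factors and import genes had medians of 0.20, -0.19 and -0.75 on the TPM scale. With median-of-ratios scaling these were 0.44, -0.13 and -0.60.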

How the data were processed

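The deposited values are TPM, 1 for each Ensembl gene in each liver. Per the submitters' processing notes, the tools were bcl2fastq 2.18, STAR 2.6.1c and RSEM. Per the labels' protocols, libraries came from a stranded TruSeq mRNA kit and were read as single reads of 75 nt. RSEM's version, the genome build, the annotation and any filter were not given in the sources used here. No coordinates or sequences are therefore printed. Similar paralogs share reads of this length, and RSEM divides them by an estimate. Read depth cannot be recovered from TPM and is unknown, which leaves values without counting intervals. Column names match the titles of the 12 samples.

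A gene was tested if 3 or more libraries reached 1 TPM. Two-sided tests used limma 3.58.1 (R 4.3.3) on log2(TPM + 1), with 4 group means, moderated errors with a trend, and Benjamini-Hochberg adjustment over all 12895 genes within each of the 5 contrasts (4 differences of groups and their interaction). The procedure was run on simulated data with errors drawn independently for each gene and library. Shifts shared by the genes of a library were therefore not covered. Subunits and lists were matched by gene name, and they were chosen with earlier results of these data known. Named subunits are those of complex II and cyc1, the 2 most abundant of each complex, up to 5 called ones per complex and contrast, the 4 farthest from their complex median, cox6b1, cox4i1l and copies of called genes, 30 in all; further subunits and list genes were named after their values were seen. Set tests were not used. Alternatives were median-of-ratios scaling, removal of ribosomal protein genes, a pseudocount of 0.1, no filter or one at 5 TPM, a replicate block, the 2 groups alone, and leaving out libraries.

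Whether equal replicate numbers mark a shared batch was checked through correlations between residuals of same-numbered libraries: 18 correlations ran from -0.207 to 0.271 and 4 exceeded 0.1. All 3 of surface wild with surface lab did (0.153, 0.111 and 0.271). These correlations are weak and no label links the libraries. Whether the replicate number marks pairs in these groups is therefore not known.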

Additional observations from a re-analysis of the deposited data

Results flagged for a closer look

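For 3 complex IV subunits the difference between cave and surface livers was not the same in wild-caught and laboratory fish, by limma's test of that difference across all 12895 genes. For cox6b1 it was -6.242 on the log2(TPM + 1) scale (adjusted p = 0.00897). In TPM its cave livers were below surface livers in wild-caught fish and above them in laboratory fish, in 3 of 3 libraries each time. With the library divisors applied, cave wild 2 stood above surface wild 2. For cox4i1l the tested difference was -3.332 (adjusted p = 0.0104), with the high values in the 3 cave lab livers. For cox4i2 it was 2.995 (adjusted p = 0.0448), with the low values in the 3 surface wild livers, and its adjusted p was under 0.05 in 8 of 19 alternatives. Place of capture, stock and date cannot be told apart from form and environment in these differences.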

How the results depend on the processing

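No subunit that was called turned its direction under any alternative run. In cave fish, wild-caught against laboratory livers, the 2 subunits called became 18 with median-of-ratios scaling, 1 without ribosomal protein genes and 1 without a filter. In wild-caught fish the 13 became 7 without ribosomal protein genes and 5 with only these groups fitted, and in surface fish the 4 became 2 without a filter and 0 with only these groups fitted (limma, 6 at an unadjusted p under 0.05). Leaving out both surface wild 1 and 2, chosen after seeing the data, leaves only surface wild 3 in its group, so its calls are not counted here. Leaving out each library in turn gave 5 to 16 subunits in wild-caught, 2 to 3 in laboratory, 1 to 3 in cave and 2 to 5 in surface fish, and 2 to 6 in the interaction. The 16 came without cave wild 1, the 5 without surface wild 1, and the 6 without surface wild 3.

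The replicate block left 12 subunits called in wild-caught fish, of which 11 were shared, and 4 in surface fish. Without the block ndufa1 and ndufa4l were called in wild-caught fish and with it they were not (adjusted p = 0.0596 and 0.0568); elsewhere the subunits called were the same.

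Of all genes, the calls in wild-caught fish became 2309 with median-of-ratios scaling, 1916 with only these groups fitted and 226 without both surface wild 1 and 2. In cave fish they became 937 with median-of-ratios scaling, 2706 without ribosomal protein genes and 2732 with a filter at 5 TPM. In laboratory fish that filter gave 381. In surface fish they became 122 with only these groups fitted and 154 without both surface wild 1 and 2. The interaction gave 271 with median-of-ratios scaling, 305 with a filter at 5 TPM and 160 without both. Leaving out single libraries gave 1546 to 5162 in wild-caught, 614 to 893 in laboratory, 2179 to 3989 in cave and 882 to 3616 in surface fish, and 161 to 3035 in the interaction.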
